A study of Mus musculus with 6 samples.

Results

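Genes of cholesterol synthesis, uptake and storage were examined in mouse liver. They were 27 genes chosen by name for their place in the pathway. Of these, 26 had a row among the 23474 genes of the expression table, and 25 passed the filter of a mean of at least 1 FPKM (fragments scaled to transcript length and to the size of the library), as did 10476 genes in all. Mvd was not analysed here, and Soat1 lay below the filter. The livers came from male C57BL/6J mice at 17 weeks of age. Both groups were fed a high-fat diet for 12 weeks from 5 weeks of age, alone (HFD) or with an extract of the herbal medicine Bangpungtongseong-san added at 1.5% of its weight (BT). The study divided 20 mice into 2 groups of 10, and 3 libraries per diet were analysed. Whether mice were pooled for a library is not stated, and p-values therefore rest on the spread among these libraries, which may be technical. No group on a normal diet was analysed here, so each difference is BT against HFD on a fat-rich background.

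Cholesterol is built in the liver cell from acetyl-CoA. The mevalonate steps make 5-carbon isoprenes that are joined to farnesyl diphosphate, from which one branch leads to squalene and sterols and others lead to longer isoprenoids such as geranylgeranyl diphosphate and dolichol. Squalene is oxidised and closed to lanosterol, which is then trimmed and reduced to cholesterol. When sterol is scarce in the membrane of the endoplasmic reticulum, the transcription factor SREBP2 is released and raises most of these genes together, often with the CCAAT-binding factor NF-Y at the same promoters. Cholesterol that arrives in lipoproteins is freed in the lysosome, moved by transfer proteins and stored as esters.

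Of the 25 genes tested, 4 were lower with BT (Fdps, Hmgcs1, Pmvk and Nsdhl) and 1 was higher (Stard4). That is 20% of the members, against 13.3% of all genes tested. Lower calls made up 16% of the members against 7.33% of all genes, and higher calls made up 6.01% of all genes. In the mevalonate steps 3 of 6 genes fell, after farnesyl diphosphate 1 of 11 fell, and among uptake, transfer and storage genes 1 of 6 rose. The median change, as BT minus HFD on the log2(FPKM + 1) scale, was -0.49 in the mevalonate steps, -0.06 after farnesyl diphosphate and 0.07 in uptake, transfer and storage, beside 0.07 over all genes tested. These are counts and medians over genes chosen with earlier results known, and no test compared the steps as lists.

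The liver identity of the libraries was clear from hepatocyte markers such as Ahsg (3091 to 3536 FPKM). Of the 33 markers tested 0 rose and 2 fell (6.06%, against 13.3% of all genes tested). These were Ttr, from 5221 ± 700 to 3076 ± 121 FPKM (-0.76, adjusted p = 0.0157), and the collagen gene Col3a1, from 13.7 ± 6.24 to 4.48 ± 1.66 FPKM (-1.36, adjusted p = 0.0354). With 1 library left out, Ttr passed in 3 of 6 fits, missing without any one of the BT libraries (highest adjusted p 0.0823). Col3a1 passed in 2 of 6, missing without BT replicate 1 or 2 or HFD replicate 2 or 3 (highest adjusted p 0.121). The summed stellate cell markers were 95.1, 116 and 151 FPKM with HFD and 69.5, 87.4 and 91.4 FPKM with BT. Most of each sum was Dcn, at 74.2, 83.5 and 109 FPKM with HFD and 56.5, 70.5 and 71.2 FPKM with BT. Dcn did not pass by limma (-0.41, adjusted p = 0.116). It passed after removal of the dependence on transcript length and GC content (-0.62, adjusted p = 0.041). The part of the stellate markers in the results was not tested. Depth, estimated roughly from the smallest values, was 13.8 to 15.8 M fragments per library. HFD replicate 3 lists 0 for Alb and for mt-Co1, which every other library holds at 22791 FPKM or more and 44334 FPKM or more, so a 0 can be a failed estimate. Over all genes 630 were higher and 768 lower with BT. The balance was 459 and 862 with median-of-ratios scaling, and 1361 and 542 when each library was rescaled to the same sum taken without Alb and mt-Co1, which moved the median change of all genes from 0.07 to 0.19. The code letter of a library differs between the diets and never within one, so whatever it stands for cannot be told apart from diet.

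Of the 4 genes that fell, 3 had an upstream sequence among the RefSeq promoters (GRCm38.p6). They are shown with that of Idi1, the neighbouring step that did not pass, because SREBP2 and NF-Y are known to act at promoters of this pathway. Whether either factor binds these stretches was not measured here. Each is the 250 bases before an annotated transcription start, on the plus strand, at chr13:119690101-119690350 for Hmgcs1, chr3:89454291-89454540 for Pmvk (the first of its 2 annotated starts), chrX:72918271-72918520 for Nsdhl and chr13:8885356-8885605 for Idi1. Capitals mark the CCAAT box (CCAAT), the core of the sterol regulatory element (CACNCCAC) and the GC box (GGGCGG), each on either strand, and no match overlapped another.
Hmgcs1: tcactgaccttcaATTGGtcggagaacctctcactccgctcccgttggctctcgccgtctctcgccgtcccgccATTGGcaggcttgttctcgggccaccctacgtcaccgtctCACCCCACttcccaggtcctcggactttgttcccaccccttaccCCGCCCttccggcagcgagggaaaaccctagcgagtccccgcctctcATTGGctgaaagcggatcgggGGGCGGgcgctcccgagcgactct
Pmvk: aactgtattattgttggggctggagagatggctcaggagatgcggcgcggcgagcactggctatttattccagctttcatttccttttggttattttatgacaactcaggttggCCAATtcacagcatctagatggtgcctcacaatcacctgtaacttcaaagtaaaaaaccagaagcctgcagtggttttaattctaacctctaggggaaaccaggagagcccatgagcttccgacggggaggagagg
Nsdhl: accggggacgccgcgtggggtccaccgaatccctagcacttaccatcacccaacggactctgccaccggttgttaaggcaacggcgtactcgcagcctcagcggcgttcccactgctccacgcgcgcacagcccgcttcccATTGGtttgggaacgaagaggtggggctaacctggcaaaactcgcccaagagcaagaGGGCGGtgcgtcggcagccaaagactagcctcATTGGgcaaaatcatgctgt
Idi1: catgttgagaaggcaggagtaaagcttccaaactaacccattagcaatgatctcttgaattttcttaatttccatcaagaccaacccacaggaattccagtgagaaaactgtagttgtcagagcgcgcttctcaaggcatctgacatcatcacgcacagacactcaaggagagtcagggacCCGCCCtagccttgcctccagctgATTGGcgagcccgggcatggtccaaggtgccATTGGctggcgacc

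The CCAAT box was present, in any annotated window, in 18 of the 20 members with an upstream sequence (90%), against 37.5% of 27025 genes with one and 40.8% of the 8231 of them that were tested here. Acat2 and Lrp1 were the 2 members without it. It stood before the 3 genes that fell and before 15 of the 17 members that did not pass or were not tested, so its presence did not separate them. In Hmgcs1, which encodes the synthase that makes 3-hydroxy-3-methylglutaryl-CoA, it began at -237, -176 and -45 from the start, around a sterol regulatory element core at -136. Nsdhl had it at -109 and -20, Idi1 at -45 and -14, and Pmvk at -136. The sterol regulatory element core was found in Hmgcs1 and Acat2 only, 2 of 20 members (10%) against 6.57% of tested genes, and the GC box in 16 of 20 (80%) against 63.4%. A match is a stretch of letters and not a measured binding site. Fdps, Fdft1, Sqle, Npc1, Stard4 and Soat2 had no entry.

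**Figure D1:**
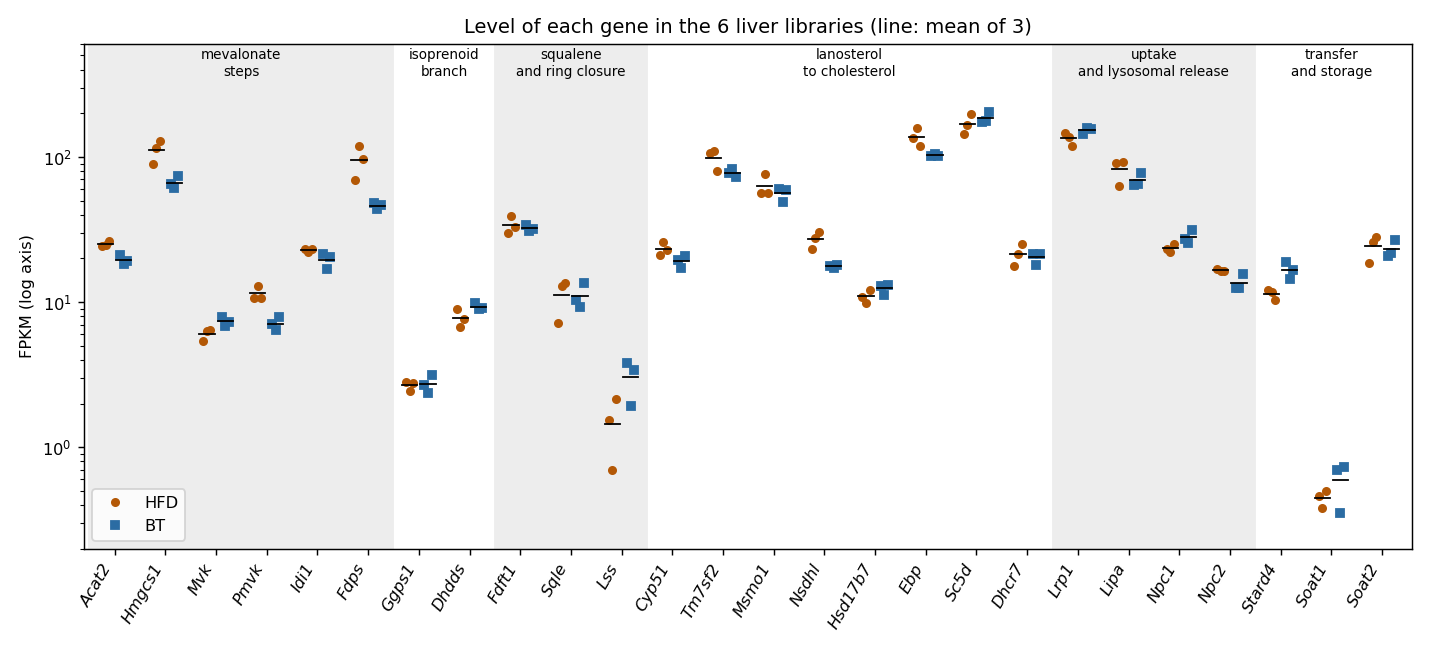
Level of each of the 26 genes in each library, in FPKM on a log axis, in pathway order. Circles are the 3 HFD libraries, squares the 3 BT libraries and lines their means. Hmgcs1, Pmvk, Fdps and Nsdhl show all BT squares below all HFD circles, and Stard4 the reverse, while the levels of the genes span from under 1 FPKM (Soat1) to over 100 FPKM (Sc5d).

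The mevalonate steps held the largest falls. Fdps (chromosome 3, 89093588 to 89101959, minus strand), whose product joins isoprenes into farnesyl diphosphate, was at 69.2, 119 and 96.3 FPKM in HFD replicates 1 to 3 and at 47.9, 44.1 and 46.4 FPKM in BT replicates 1 to 3. The BT libraries lay close together and below every HFD library, of which HFD replicate 1 was nearest. The mean went from 95 ± 25.1 to 46.2 ± 1.92 FPKM (SD, n = 3 each), 2.06-fold lower, a log2 change of -0.99 ± 0.18 (SE, adjusted p = 0.0149 by limma). Exons of Gm43738 on the same strand cover 26.7% of the exon bases of Fdps, and the gene has processed pseudogenes, so part of its value may be shared.

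Hmgcs1 (chromosome 13, 119690379 to 119708260, plus strand) acts near the start of the route. Its levels were 89.1, 116 and 129 FPKM with HFD and 64.7, 60.9 and 73.7 FPKM with BT. All BT values were lower than all HFD values, and HFD replicate 1 was again the lowest of its group. The means were 111 ± 20.4 and 66.4 ± 6.55 FPKM, 1.68-fold lower (-0.73 ± 0.15, adjusted p = 0.0213). Exons of Gm48342 on the opposite strand cover 12.1% of the exon bases of Hmgcs1.

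Pmvk (chromosome 3, 89454541 to 89469013, plus strand) encodes the kinase that adds the second phosphate to mevalonate. It stood at 10.7, 13.0 and 10.7 FPKM with HFD and at 7.02, 6.38 and 7.87 FPKM with BT, again without overlap. The means were 11.5 ± 1.32 and 7.09 ± 0.748 FPKM (-0.62 ± 0.12, adjusted p = 0.0191). Its longest annotated transcript, of 1194 bases, is short beside the median of 3245 bases of the genes tested. After removal of the dependence on transcript length and GC content in every library, the change of Pmvk was -0.34 (adjusted p = 0.073), whereas Fdps, Hmgcs1 and Nsdhl still passed (-1.05, -0.85 and -0.59).

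The other 3 mevalonate genes did not pass. Mvk encodes the kinase just before Pmvk, and its values lay the other way, at 5.38, 6.31 and 6.39 FPKM with HFD and 7.93, 6.80 and 7.33 FPKM with BT (0.25 ± 0.12, adjusted p = 0.173). Acat2, the cytosolic thiolase that condenses acetyl-CoA and not the esterifying enzyme of the same older name, was at 24.3, 24.9 and 26.3 against 21.1, 18.4 and 19.3 FPKM (-0.35 ± 0.10, adjusted p = 0.0541). It passed under a filter of 5 FPKM (adjusted p = 0.0418) and with median-of-ratios scaling (-0.41, adjusted p = 0.039). On rescaling to TPM its change was -0.26 (adjusted p = 0.181), and it passed in 0 of the fits that left out 1 library. The value of Acat2 may include reads of the close paralog Acat3. Idi1, the isomerase that interconverts the 2 isoprene units, was at 23.1, 22.3 and 23.3 against 21.4, 17.0 and 20.3 FPKM (-0.22 ± 0.11, adjusted p = 0.21). None of these 6 genes had overlapping diet groups, 5 of them lower and Mvk higher. Over all genes tested 39.3% did not overlap, 16.1% lower and 23.2% higher.

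Farnesyl diphosphate is a branch point, and none of the 3 genes that use it passed (0 at an unadjusted p under 0.05 by limma). Ggps1, which makes geranylgeranyl diphosphate for protein prenylation, was at 2.80, 2.46 and 2.75 FPKM with HFD and 2.68, 2.38 and 3.14 FPKM with BT (0.02, 95% interval -0.27 to 0.31, adjusted p = 0.926). Dhdds, a subunit of the dolichol-making prenyltransferase, was at 8.98, 6.73 and 7.62 against 9.86, 8.95 and 9.04 FPKM (0.24, -0.05 to 0.52, adjusted p = 0.224). Fdft1, squalene synthase and the committed step to sterols, was at 29.8, 39.2 and 32.7 against 34.1, 31.1 and 32.0 FPKM (-0.05, -0.33 to 0.22, adjusted p = 0.774). In all 3 genes the diets overlapped. Exons of Ctsb on the opposite strand cover 18.3% of the exon bases of Fdft1.

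The levels of neighbouring steps were also set against each other within each library, as a log2 ratio of FPKM. Each ratio has a gene called lower over a neighbour that was not called, so it restates that call on another scale and was not taken as a separate result. The ratio of Fdps to Fdft1 was 1.22, 1.61 and 1.56 with HFD and 0.49, 0.50 and 0.54 with BT. The ratio of Pmvk to Mvk was 0.99, 1.04 and 0.75 with HFD and -0.18, -0.09 and 0.10 with BT, so the kinase transcripts went from Pmvk above Mvk in each HFD library to about equal levels with BT.

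**Figure D2:**
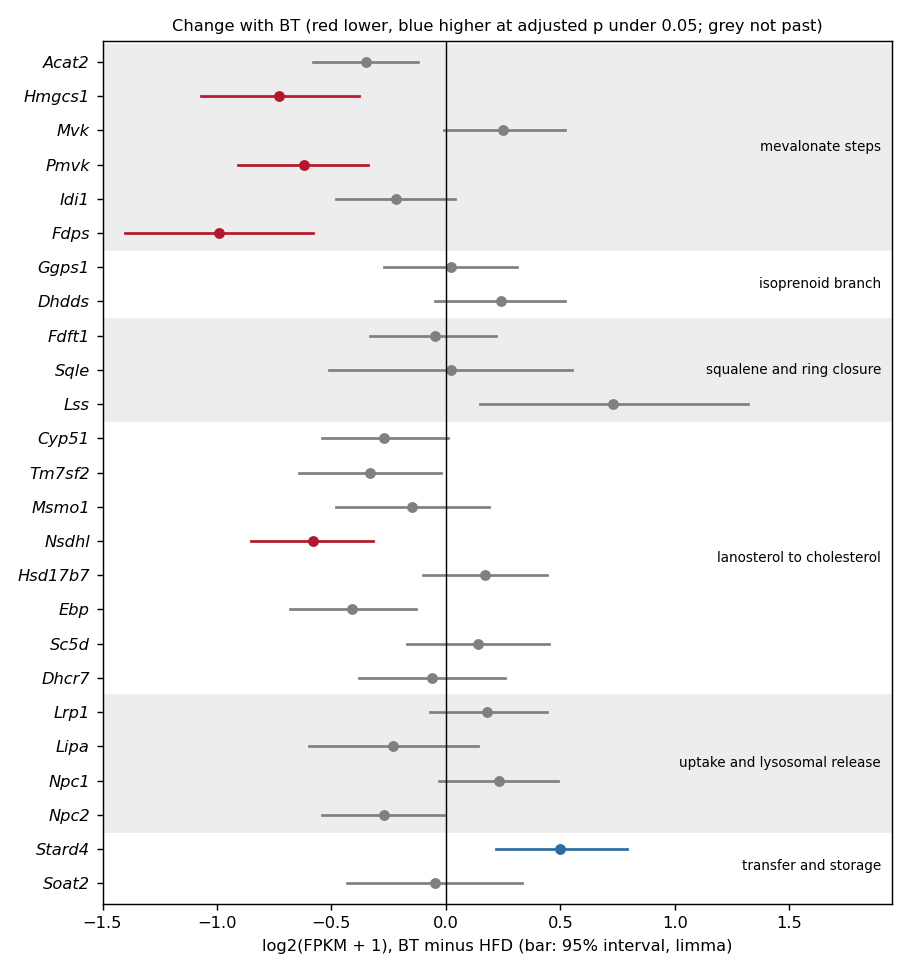
Change of each of the 25 tested genes, as BT minus HFD in log2(FPKM + 1), with limma's 95% interval, in pathway order. Fdps, Hmgcs1, Pmvk and Nsdhl (red) lie below 0 and Stard4 (blue) above it, and the intervals of Ggps1, Fdft1 and Sqle span 0.

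Beyond squalene synthase, neither Sqle nor Lss passed by limma (unadjusted p = 0.941 and 0.0203). Sqle, squalene epoxidase, a rate-controlling enzyme of the sterol branch, was at 7.14, 13.0 and 13.5 FPKM with HFD and 10.4, 9.29 and 13.6 FPKM with BT. HFD replicate 1 stood far below the other HFD libraries, and the interval of the change was wide (0.02, -0.51 to 0.55, adjusted p = 0.965). Lss, lanosterol synthase, closes the ring and was low throughout, at 1.53, 0.699 and 2.14 against 3.78, 1.93 and 3.43 FPKM. The diets overlapped for Lss (0.73 ± 0.26, adjusted p = 0.0914), and it was the highest fitted change of any member that did not pass.

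Of the 8 genes from lanosterol to cholesterol, 1 fell and none rose. Nsdhl (chromosome X, 72918557 to 72958514, plus strand) encodes a dehydrogenase that removes methyl groups at carbon 4 of the sterol. Its levels were 23.4, 27.8 and 30.4 FPKM with HFD and 17.8, 17.2 and 18.1 FPKM with BT. The BT libraries were nearly level and all below HFD, with means of 27.2 ± 3.50 and 17.7 ± 0.421 FPKM, 1.54-fold lower (-0.58 ± 0.12, adjusted p = 0.0191).

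The partners of Nsdhl in the same demethylation did not pass. Msmo1, the oxidase that precedes it, was at 56.0, 76.5 and 56.3 against 60.6, 49.1 and 59.4 FPKM (-0.15 ± 0.15, adjusted p = 0.517). Hsd17b7, the ketoreductase that follows it, was at 10.9, 9.92 and 12.1 against 13.0, 11.2 and 13.1 FPKM (0.17 ± 0.12, adjusted p = 0.341). Both overlapped between the diets. The log2 ratio of Nsdhl to Hsd17b7 was 1.10, 1.48 and 1.33 with HFD and 0.45, 0.62 and 0.46 with BT, which likewise restates the call of Nsdhl.

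Ebp, the isomerase that shifts the double bond of the sterol ring, came close to the threshold. It was at 135, 159 and 119 FPKM with HFD and 101, 105 and 101 FPKM with BT (-0.41 ± 0.12, adjusted p = 0.0569). The diets did not overlap, and it passed with a filter of 5 FPKM (adjusted p = 0.049) and without HFD replicate 3 (-0.51, adjusted p = 0.0328). With any other library left out Ebp did not pass. Nor did it pass on rescaling to TPM (-0.32, adjusted p = 0.0767) or with median-of-ratios scaling (-0.48, adjusted p = 0.0717). With length and GC trends removed its change was -0.26 (adjusted p = 0.14). Tm7sf2, a sterol reductase, was at 107, 109.7 and 80.4 against 78.1, 82.3 and 73.1 FPKM (-0.33 ± 0.13, adjusted p = 0.129) and passed without HFD replicate 3 (-0.47, adjusted p = 0.0325). Exons of Vps51 on the same strand cover 12.1% of those of Tm7sf2. Cyp51, the cytochrome P450 that starts the demethylation of lanosterol, was at 21, 26.1 and 22.9 against 19.6, 17.3 and 20.7 FPKM (-0.27 ± 0.12, adjusted p = 0.161).

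The last 2 enzymes did not pass. Sc5d, which adds a double bond to the sterol ring, had the highest level of the synthesis genes in both diets, at 144, 166 and 198 FPKM with HFD and 175, 178 and 204 FPKM with BT (0.14 ± 0.13, adjusted p = 0.491). Dhcr7, the final reductase of one route, was at 17.8, 21.3 and 25.2 against 21.6, 18.1 and 21.4 FPKM (-0.06 ± 0.14, adjusted p = 0.794). Their intervals of -0.17 to 0.45 and -0.38 to 0.26 leave room for a modest change in either direction.

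The 4 genes of uptake and lysosomal release did not pass, and 1 of 4 had an unadjusted p under 0.05 by limma. Lrp1, a receptor that clears lipoprotein remnants, was abundant at 147, 138 and 119 FPKM with HFD and 144, 158 and 156 FPKM with BT (0.18, -0.07 to 0.44, adjusted p = 0.279). Lipa, the lysosomal acid lipase that splits cholesteryl esters, was at 91.0, 62.9 and 92.3 against 63.6, 65.5 and 77.8 FPKM (-0.23, -0.60 to 0.14, adjusted p = 0.349). These overlapped. Npc1 and Npc2 hand cholesterol out of the lysosome together. Npc1 was at 23.1, 22.3 and 25.3 FPKM with HFD and 27.1, 25.4 and 31.2 FPKM with BT (0.23 ± 0.11, adjusted p = 0.192). Npc2 was at 16.8, 16.3 and 16.5 against 12.6, 12.5 and 15.7 FPKM (-0.27 ± 0.12, adjusted p = 0.141). Neither gene had overlapping diets. With length and GC trends removed the change of Npc1 was 0.01 (adjusted p = 0.948) and that of Npc2 -0.34 (adjusted p = 0.0707).

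Stard4 (chromosome 18, 33199355 to 33213862, minus strand) was the only member called higher. It encodes a soluble protein that carries cholesterol between membranes and is itself a sterol-regulated gene. Its levels were 12.2, 11.7 and 10.4 FPKM with HFD and 18.9, 14.5 and 16.7 FPKM with BT, so every BT library was above every HFD library. The means were 11.4 ± 0.936 and 16.7 ± 2.23 FPKM, 1.46-fold higher (0.50 ± 0.13, adjusted p = 0.0372). With median-of-ratios scaling the change was 0.44 (adjusted p = 0.07), and with length and GC trends removed it was 0.30 (adjusted p = 0.195). Its longest transcript has 5097 bases.

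Of the 2 esterifying enzymes that store cholesterol, Soat2 was tested and did not pass. Soat2, the form of hepatocytes, was at 18.6, 26.1 and 27.9 FPKM with HFD and 20.8, 21.7 and 26.9 FPKM with BT (-0.05, -0.43 to 0.33, adjusted p = 0.85). Soat1, the form found in macrophages and many other cells, was at 0.462, 0.382 and 0.499 against 0.693, 0.355 and 0.727 FPKM and was not tested. Kupffer cell and macrophage markers were present in every library, with 0 of 12 past the threshold (3 at an unadjusted p under 0.05 by limma). Their summed level was 153 to 214 FPKM with HFD and 149 to 224 FPKM with BT, which overlapped. The 3 with an unadjusted p under 0.05 all had higher means with BT. These were Cd5l (25.1 ± 1.15 and 34.4 ± 4.73 FPKM, 0.43, adjusted p = 0.0503), Csf1r (0.39, adjusted p = 0.124) and Timd4 (0.29, adjusted p = 0.145). Over the 12 markers 7 changes were above 0 and 5 below it, the lowest being that of Cd68 (-0.58, adjusted p = 0.312). Cd5l passed with length and GC trends removed (0.51, adjusted p = 0.0377), and the part of these cells in the results was not tested. In whole liver, fewer cells of a type and less RNA per cell cannot be told apart.

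Libraries of one diet also differed among themselves. Of the 25 genes, 19 were lowest of the BT group in BT replicate 2, against 35.5% of all genes tested. HFD replicate 1 was the lowest of its group in 13 of 25, against 35.1% of all genes. The SD of log2 values was larger in HFD than in BT for 76% of the members and for 69.7% of all genes tested. Summed over the 6 mevalonate genes, the level was 222, 302 and 292 FPKM with HFD and 170.2, 154 and 175 FPKM with BT, which did not overlap. Summed over the 11 later synthesis genes it was 553, 649 and 592 against 536, 521 and 559.8 FPKM, which did. The mevalonate sum is made up mostly of Fdps and Hmgcs1, so it largely restates their calls and was not taken as a separate result.

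**Figure D3:**
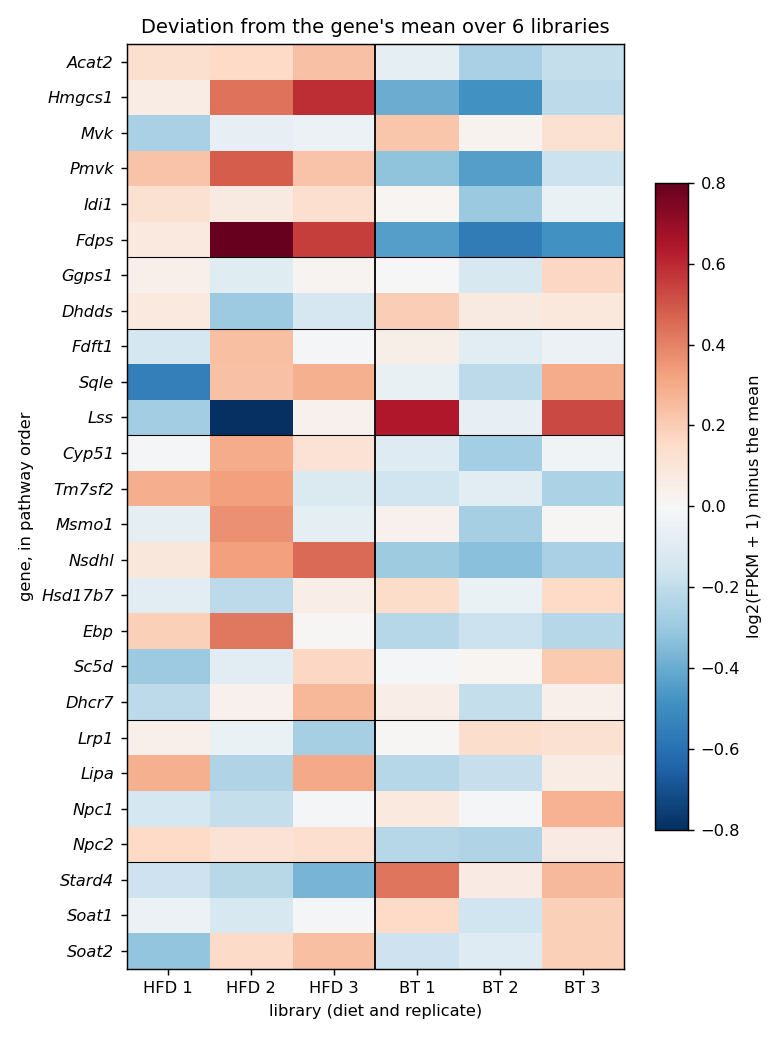
Deviation of each gene in each library from its mean over the 6 libraries, in log2(FPKM + 1), in pathway order (red above, blue below). BT replicate 2 is the palest or bluest BT column in most rows, being lowest of its group in 19 of 25 tested genes. The rows of Fdps, Hmgcs1, Pmvk and Nsdhl are lower in each BT library than in each HFD library, and the row of Lss has a mean difference as large as that of Hmgcs1 (0.73 and -0.73) with overlapping diets.

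The calls did not hold in every fit that left out 1 library. Such fits have fewer libraries and so less power, which was not told apart from dependence on any 1 library. The 5 called genes had the same direction in all 6 fits that left out 1 library, and 0 of the 5 passed in all 6. Without BT replicate 1 or without BT replicate 2, 0 of 25 members passed by limma, with 7 and 8 at an unadjusted p under 0.05. Without BT replicate 1 only 1.65% of all genes passed, and without BT replicate 2 3.09%. Without HFD replicate 2, Fdps and Pmvk passed. The highest adjusted p in these fits was 0.0605 for Fdps, 0.0869 for Hmgcs1, 0.0821 for Pmvk, 0.0818 for Nsdhl and 0.142 for Stard4, with changes of -1.20 to -0.81, -0.88 to -0.61, -0.69 to -0.54, -0.68 to -0.50 and 0.41 to 0.60.

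**Figure D4:**
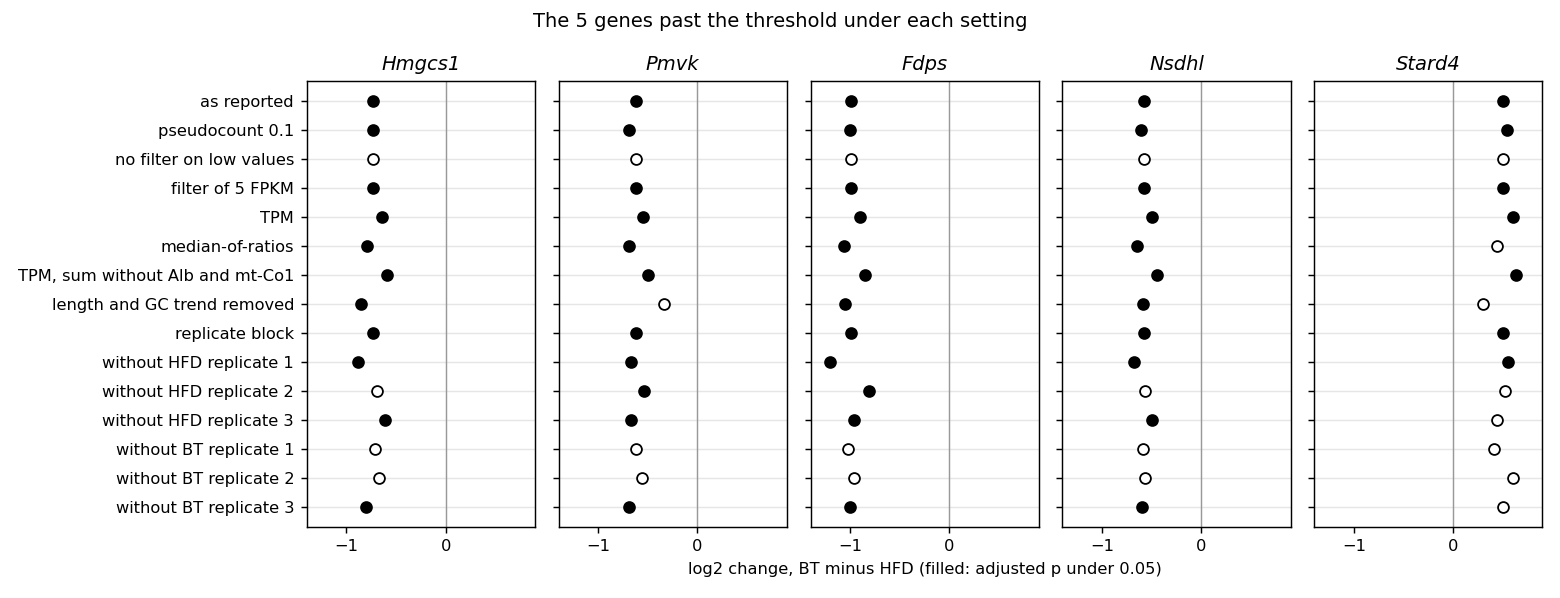
Change of the 5 called genes under each processing setting and with each library left out, as BT minus HFD in log2, filled where the adjusted p is under 0.05. All 4 lower genes stay left of 0 and Stard4 right of it, and 0 of the 5 are filled without BT replicate 1, without BT replicate 2 or with no filter on low values.

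Around these members, 51 other genes of the pathway were listed and 48 tested. Of them 2 rose and 2 fell (8.33%, against 13.3% of all genes). Among 9 sterol-sensing genes 1 fell. Insig2, which holds SREBP precursors in the endoplasmic reticulum, was at 139, 110.1 and 189 FPKM with HFD and 53.2, 51.7 and 101 FPKM with BT (-1.11 ± 0.28, adjusted p = 0.0372). The diets did not overlap, though the spread within each was wide, and it missed the threshold in 5 of the 6 fits that left out 1 library (highest adjusted p 0.126) and on rescaling to TPM (adjusted p = 0.0544). Srebf2, which encodes SREBP2, was at 8.75 ± 1.32 and 10.3 ± 0.720 FPKM (0.22 ± 0.13, adjusted p = 0.256).

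Among 9 tested genes of acetyl-CoA supply and electron transfer, 1 rose and 1 fell. Por, the reductase that feeds electrons to squalene epoxidase and to Cyp51 as to other microsomal P450s, was at 125, 122 and 129 FPKM with HFD and 259, 284 and 229.8 FPKM with BT, 2.05-fold higher (1.03 ± 0.11, adjusted p = 0.00306). With any single library removed it still passed (highest adjusted p 0.0236). Slc25a1, the mitochondrial citrate carrier, fell from 111 ± 5.54 to 87.2 ± 4.35 FPKM (-0.35 ± 0.10, adjusted p = 0.0463), and missed the threshold in each fit that left out 1 library, on rescaling to TPM (-0.26) and with length and GC trends removed (-0.13).

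In the remaining lists 1 gene passed. Osbpl2, an oxysterol-binding lipid transfer protein, rose from 8.32 ± 0.622 to 11.1 ± 0.315 FPKM (0.38 ± 0.10, adjusted p = 0.0475), and missed the threshold in each fit that left out 1 library. It also missed on rescaling to TPM (adjusted p = 0.0577), with median-of-ratios scaling (0.0716) and with length and GC trends removed (0.0559). It passed with a filter of 5 FPKM (0.037) and on rescaling without Alb and mt-Co1 (0.0303). Stard5, another sterol carrier, was at 59.5 ± 6.51 and 77.5 ± 3.89 FPKM (0.38 ± 0.11, adjusted p = 0.0539). Of 13 genes that use isoprenoids for prenylation, dolichol and ubiquinone, 0 passed (2 at an unadjusted p under 0.05 by limma), the nearest being Pggt1b (0.43, adjusted p = 0.0786) and Rabggta (0.34, adjusted p = 0.0954), both subunits of prenyltransferases. Of 7 tested partners of uptake, 0 passed (1 at an unadjusted p under 0.05 by limma). Vldlr, a lipoprotein receptor, was at 2.56, 2.14 and 4.07 against 1.38, 1.69 and 1.84 FPKM (-0.55 ± 0.19, adjusted p = 0.0853). It passed with length and GC trends removed (-0.83, adjusted p = 0.0172). Sort1, a sorting receptor, had a change of 0.35 (adjusted p = 0.251).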

How the data were processed

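The authors deposited FPKM values in 1 table. CASAVA 1.8.2, STAR 2.4.0 and Cufflinks 2.1.1 are listed, without their roles, per the submitters' processing notes, and libraries were made with a TruSeq RNA kit, per the labels' protocols. Build, annotation and strand setting: not given in the sources used here. GENCODE M21 (GRCm38) gave symbols for 22671 of 23474 identifiers, 1-based coordinates, exon overlaps and longest transcripts.

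The 10476 genes averaging 1 FPKM or more were fitted as log2(FPKM + 1) with limma 3.58.1 in R 4.3.3 (eBayes with a variance trend, 4 residual degrees of freedom). Tests were two-sided, Benjamini-Hochberg adjustment ran over every tested gene, and the threshold was 0.05. The script was tested on simulated data. Depth was estimated from single-transcript genes, taking the median of FPKM times kilobases between 0.03 and 0.1 as 1 fragment. Every member is named, as are the other pathway genes past the threshold, the 2 with the smallest p of each list, and the markers with the smallest p of a list that moved. The result of 1 gene so chosen is not reported here. Members and lists were chosen with earlier results of these data known. Srebf2, Ahsg, Dcn, Cd5l, Csf1r, Timd4 and Cd68 were named after their values were seen. Alternatives were a pseudocount of 0.1, other filters and scalings, length and GC trends removed (natural splines, 5 degrees of freedom), a replicate block, and each library left out in turn. Rescaling by a sum without Alb and mt-Co1 was chosen after seeing the data.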

Additional observations from a re-analysis of the deposited data

How the results depend on the processing

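Counts are given as higher and lower with BT. With no filter on low values 0 and 0 members passed (9 at an unadjusted p under 0.05 by limma), 1 and 0 other pathway genes, and 36 and 52 of all genes. This setting tests 23474 genes. With median-of-ratios scaling 0 and 5 members passed and 1 other pathway gene was higher. With length and GC trends removed 0 and 3 members passed, 1 other pathway gene was higher, and 399 of all genes were higher. Rescaling to TPM left 0 other pathway genes lower (with 11 at an unadjusted p under 0.05 by limma, counting both directions). Rescaling without Alb and mt-Co1 gave 5 higher and 1 lower and 1361 of all genes higher. A filter of 5 FPKM gave 1 and 6 members.

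With a replicate block 2 and 5 members passed, adding Lss and Ebp, 1 other pathway gene was higher, and 859 and 949 of all genes passed. Deviations of same-numbered libraries correlated at 0.163, 0.097 and 0.147, and each library correlated best with its own number, a hint from the data and not from the design, so the numbers were not taken as pairs.

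Leaving out 1 library gave 0 to 1 members higher and 0 to 6 lower, 1 to 3 and 0 to 1 other pathway genes, and 49 to 855 and 124 to 814 of all genes. Small changes that did not pass turned sign. Ggps1 was -0.03 with median-of-ratios scaling and -0.15 with trends removed, and Sqle was -0.05 and -0.11. On rescaling to TPM and on rescaling without Alb and mt-Co1, Fdft1, Dhcr7 and Soat2 were 0.03, 0.03 and 0.04, and then 0.08 each. Hsd17b7 was -0.00, Sc5d -0.05 and Lrp1 -0.05 with trends removed. With 1 library left out, Ggps1 ranged from -0.06 to 0.09, Sqle from -0.25 to 0.17, Fdft1 from -0.14 to 0.05, Dhcr7 from -0.18 to 0.06 and Soat2 from -0.22 to 0.06. Of 513 values of 37 named genes under alternatives, 411 kept their direction and side of the threshold. Why the other values differed was not tested under any setting, including the fits with fewer libraries or more genes. Without counts, no counting interval can be given for low genes such as Lss, Ggps1 and Soat1.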
